A study of Mus musculus with 6 samples.

Results

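The genes described here encode the machinery of regulated secretion in neurons: 31 genes for SNARE proteins, complexins, synaptotagmins, active zone scaffolds, vesicle proteins, vesicular glutamate transporters, granins and the CAPS proteins. They were taken by name from a table of 54532 mouse genes, and all 31 were found and passed the filter on low counts. The measurements are bulk RNA sequencing of dorsal root ganglia, which house the cell bodies of the sensory neurons of the trunk and limbs. There were 3 libraries of Ash1l+/- mice and 3 of WT mice from the same litters. Ash1l encodes a histone methyltransferase, and the Ash1l+/- mice carry 1 altered copy. The sources used here do not give the structure of the allele, the strain, age and sex of the mice or whether ganglia were pooled. Nothing says that the libraries come from separate animals, so a p-value here reflects spread between libraries that may be technical in part.

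A sensory neuron makes these transcripts in its cell body and ships the proteins along its axon, both to the spinal cord, where small clear vesicles release glutamate, and to the skin and other tissues, where dense-core vesicles release peptides. Fusion is driven by SNARE proteins on the vesicle and on the plasma membrane, held ready by complexins and triggered when synaptotagmins bind calcium. Active zone scaffolds and Munc13 proteins place and prime synaptic vesicles. Granins help to form dense-core vesicles, which the CAPS proteins prime.

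The targeted gene was not reduced in libraries that carry the Ash1l+/- label: Ash1l had 4.61, 4.58 and 4.75 FPKM in Ash1l+/- replicates 1 to 3, against 4.19, 2.11 and 3.74 FPKM in WT replicates 1 to 3. FPKM are fragments divided by gene length and by 1 scaling total per library, as deposited. That total was 0.750 of the count total in WT replicate 2 and exceeded the count total in the other libraries. FPKM in WT replicate 2 are therefore higher than division by count totals would give, and those in the other libraries lower. Every Ash1l+/- library lay above every WT library in Ash1l FPKM. The Ash1l log2 fold change without WT replicate 2 was 0.22 (SE 0.08, adjusted p = 0.0593 by edgeR's quasi-likelihood test with Benjamini-Hochberg adjustment). It was 0.46 (SE 0.27, edgeR adjusted p = 0.396) with all 6 libraries, and -0.04 (SE 0.08, edgeR adjusted p = 0.789) without WT replicate 2 once each library's trends on GC content and gene length were removed. The transcript therefore does not check the labels, and each direction below rests on the labels alone. WT replicate 2 stood apart from the other libraries, with correlations of log2 CPM across genes of 0.860 to 0.890 with each of them, while the other 5 correlated with each other at 0.985 to 0.994. Members are therefore compared with all 6 libraries and with the 5 that remain without WT replicate 2. Total gene counts ranged from 17209294 to 20545722. The members are deeply covered, with mean counts per library from 331 to 27969 and a median of 5107, against a median of 354 over all genes tested with 6 libraries.

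The labelled tissue was checked against marker genes. Summed over 13 sensory neuron markers, FPKM came to 6150 to 6429 in the Ash1l+/- libraries, against 6535, 14339 and 6518 in WT replicates 1, 2 and 3. Uchl1 alone had 8816 FPKM of that sum in WT replicate 2. The median log2 ratio of the 13 markers in WT replicate 2 over WT replicates 1 and 3 was -0.24. All 5 markers of chromaffin and endocrine cells, which also hold dense-core vesicles, were under 1 FPKM in every library, among them Dbh and Pnmt, and Pnmt was at 0 throughout. Of 16 markers of central nervous system tissue, 13 were under 1 FPKM in every library, and Chat, Mnx1 and Neurod6 were at 0. The rest were Camk2a at 10.7 to 24.7 FPKM, Aqp4 at 0.431 to 3.09 FPKM and Mobp at 0.577 to 1.94 FPKM. In the 6 libraries edgeR called 0 markers of any list. Without WT replicate 2, where 9.39% of all genes were called higher and 10.4% lower, 5 of 8 satellite glia markers were called higher in Ash1l+/- and 1 lower. Of 9 myelinating Schwann cell markers, 8 fibroblast markers and 6 erythrocyte markers, 3 of each were called lower and 0 higher by edgeR. Of the 7 central nervous system markers tested, edgeR called Aqp4 higher (log2 fold change 0.72) and Mobp lower (-1.28). With GC and length trends removed, 3.04% of all genes were called higher and 4.07% lower. The marker calls were then 2 higher and 0 lower for satellite glia, 2 lower for Schwann cells, 3 lower for fibroblasts and 0 for erythrocytes. For central nervous system markers they were again 1 higher and 1 lower. Summed levels were 1599 to 1966 FPKM in Ash1l+/- and 1793 to 5461 FPKM in WT for satellite glia, 1476 to 1750 FPKM in Ash1l+/- and 1762 to 2207 FPKM in WT for Schwann cells, and 106 to 118 FPKM in Ash1l+/- and 103 to 128 FPKM in WT for fibroblasts. Apoe alone had 4613 FPKM of the satellite glia sum in WT replicate 2. The median log2 ratio of the satellite glia markers there over WT replicates 1 and 3 was -0.40. The erythrocyte markers summed to 41.9 to 123 FPKM in Ash1l+/-, against 103, 825 and 134 FPKM in WT replicates 1, 2 and 3. Their part in the members' values was not tested. In whole ganglia, fewer cells of a type and less RNA per cell cannot be told apart.

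Levels spanned more than 2 orders of magnitude per unit of length across the members. The most abundant member was Cplx1, with 480 ± 41.9 FPKM in Ash1l+/- and 659 ± 157 FPKM in WT (SD, n = 3 each). Next came Scg3 with 405 ± 47.3 FPKM in Ash1l+/- and 456 ± 232 FPKM in WT. Syt11 averaged 278 ± 6.15 FPKM in Ash1l+/- and 324 ± 65.9 FPKM in WT, and Snap25 208 ± 15.1 FPKM in Ash1l+/- and 168 ± 33.5 FPKM in WT. Cplx1 and Scg3 overlapped between libraries within Ash1l+/-, whereas Scg3, Syt11 and Snap25 were separate there. All 6 active zone and priming genes were scarce. Their Ash1l+/- means ran from 1.27 ± 0.0983 FPKM for Unc13b, the lowest of all members, to 13.3 ± 0.103 FPKM for Unc13a, against 1.03 ± 0.285 and 11.4 ± 3.83 FPKM in WT. Among vesicular glutamate transporters in Ash1l+/-, Slc17a6 averaged 53.6 ± 5.35 FPKM, Slc17a7 37.9 ± 4.93 FPKM and Slc17a8 3.88 ± 0.495 FPKM. In WT the means were 51.7 ± 7.38, 40.0 ± 10.4 and 3.84 ± 0.506 FPKM in that order of genes. Altogether the members took 1.26% to 1.31% of the counts in Ash1l+/-, against shares of 1.24%, 1.09% and 1.29% in WT replicates 1, 2 and 3.

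**Figure D1:**
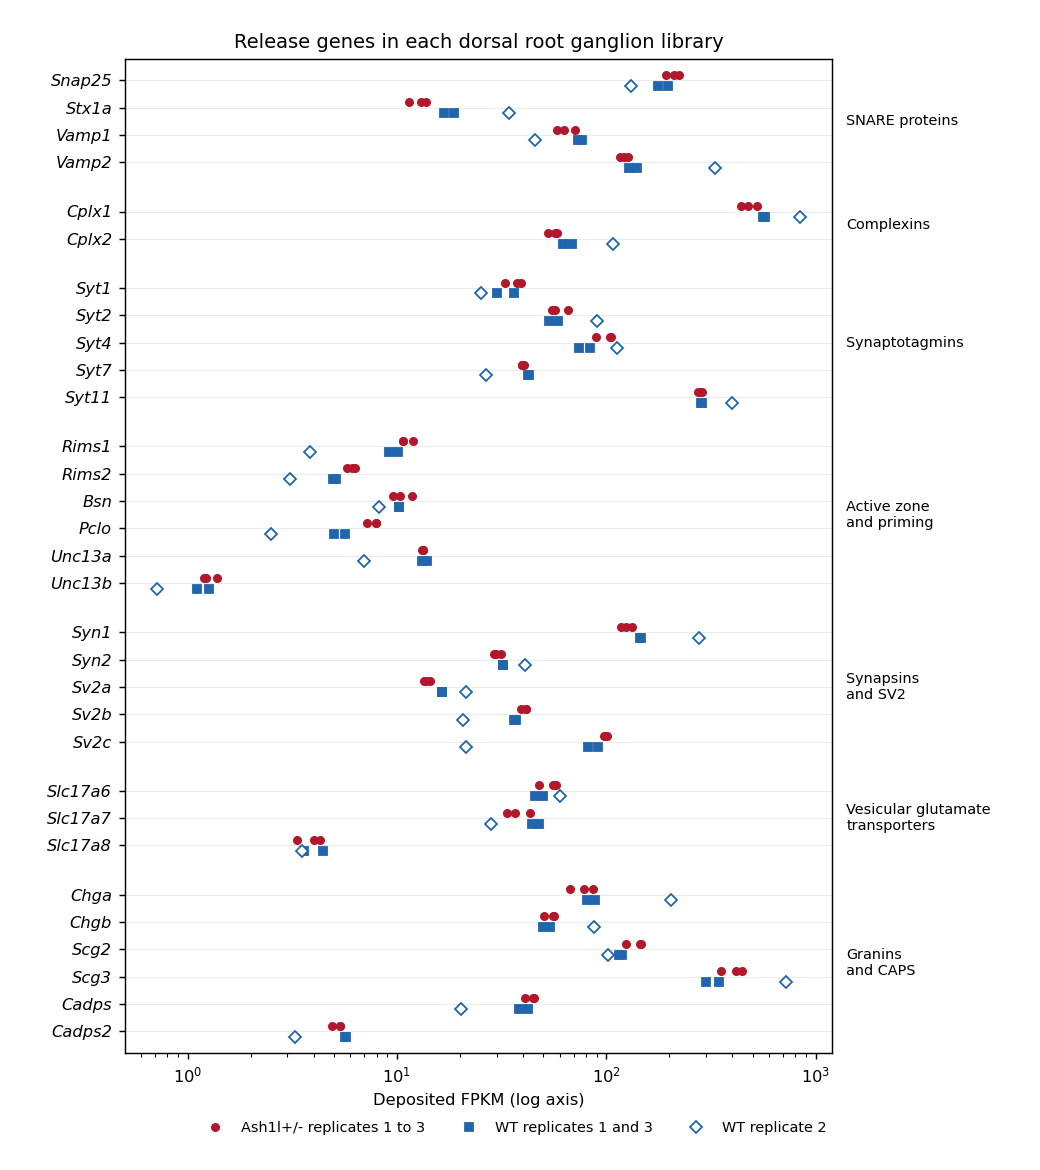
Deposited FPKM (log axis) of each of the 31 genes, ordered by role, in Ash1l+/- replicates 1 to 3 (red circles), WT replicates 1 and 3 (blue squares) and WT replicate 2 (open diamonds). WT replicate 2 is the highest library for 14 genes and the lowest for 16.

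WT replicate 2 was at an edge of the FPKM range for nearly every member, as the plot of levels by library shows. Ranks on counts divided by count totals were not computed. It was the highest of the 6 libraries for 14 members, the lowest for 16 and between the others only for Slc17a8, the transporter found in a few sensory neuron types. Short transcripts were high there and long ones low. Vamp2 was 1.30 and Chga 1.27 higher on the log2 FPKM scale than the mean of WT replicates 1 and 3, while Sv2c was lower by 2.01 (a difference of -2.01) and Rims1 stood at -1.34. The Spearman rho of this difference with gene length was -0.77 across the 31 members and -0.46 across 14128 protein-coding genes. These correlations are across genes of the same 3 libraries and describe them only. Of the 31 log2 fold changes between genotypes, 23 were larger in size with 6 libraries than with 5, and 7 changed sign.

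**Figure D2:**
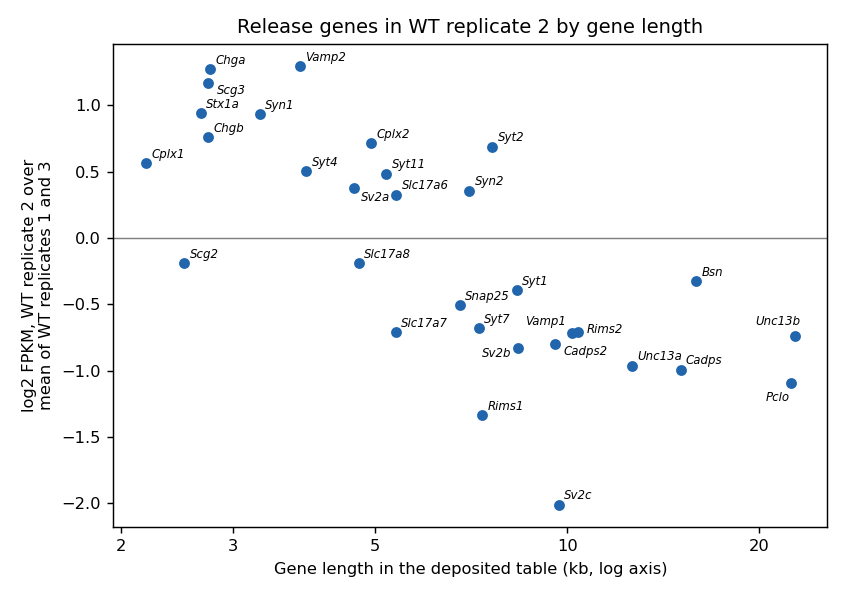
log2 FPKM of WT replicate 2 relative to the mean of WT replicates 1 and 3 (vertical axis) against gene length in kilobases (log axis) for the 31 genes. Members under about 4 kb, apart from Scg2, lie above 0, and those over 8 kb lie below it.

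With all 6 libraries, edgeR's quasi-likelihood test with Benjamini-Hochberg adjustment called 0 of the 31 members at an adjusted p of 0.05, where 0.0% of 16032 genes were called. At an unadjusted p under 0.05, 2 members passed, Stx1a and Pclo, which is 6.45% of them against 10.6% of all genes. DESeq2, which called 0.22% of 15909 genes, and limma-voom, which called 0 genes, also called 0 members, whereas limma-voom with library quality weights called 12, or 38.7%, against 21.3% of all genes: 5 higher (9.92% of genes) and 7 lower (11.4% of genes). Without WT replicate 2, edgeR called 11 members, or 35.5%, against 19.8% of 16395 genes. The members have a higher median count than all genes tested with 6 libraries (5107 against 354). No share over genes of like count was computed. Of these, 5 rose (16.1% against 9.39% of genes), namely Pclo, Scg3, Syt4, Rims2 and Scg2, and 6 fell (19.4% against 10.4%), namely Stx1a, Slc17a7, Sv2a, Cplx1, Cplx2 and Syn1. All 11 were also called, with the same sign, with quality weights and 6 libraries. Such weights count an outlying library less, so this fit is not a separate check of the 5-library calls. For Scg3 the log2 fold change was 0.36 with weights, 0.33 with 5 libraries and -0.18 with 6 unweighted libraries. The median log2 fold change of the members was 0.04 with 6 libraries and 0.04 with 5, against medians of 0.00 over all genes in both. The log2 fold change with 5 libraries was above 0 for 16 members, or 51.6%, against 50.2% of genes. Groups did not overlap in FPKM for 13 members with 6 libraries (41.9%, against 38.7% of genes), 6 higher (19.9% of genes) and 7 lower (18.8% of genes). With 5 libraries they did not overlap for 19 (61.3%, against 49.4%), 8 higher (24.6% of genes) and 11 lower (24.7% of genes).

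The number of calls rested on single libraries, among the members and among all genes. With the 5 libraries edgeR called 11 members and 3252 genes. It called 15 members and 4198 genes without Ash1l+/- replicate 1, and 2 members and 1855 genes without Ash1l+/- replicate 2. Without Ash1l+/- replicate 3 it called 4 members and 2120 genes. Leaving out WT replicate 1 or 3 leaves 1 WT library, which is assumed to vary like the Ash1l+/- group. Folds were ordered by GC content. Across members, the 5-library fold followed the GC share of the longest transcript with a rho of -0.69 (n = 31), compared with -0.60 across 14286 protein-coding genes. Removing each library's trends on GC and length left 6 members called, or 19.4%, against 7.12% of genes. Of these, 4 were higher, Pclo, Scg2, Scg3 and Chgb, against 3.04% of genes, and 2 lower, Vamp1 and Cadps2, against 4.07% of genes.

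**Figure D3:**
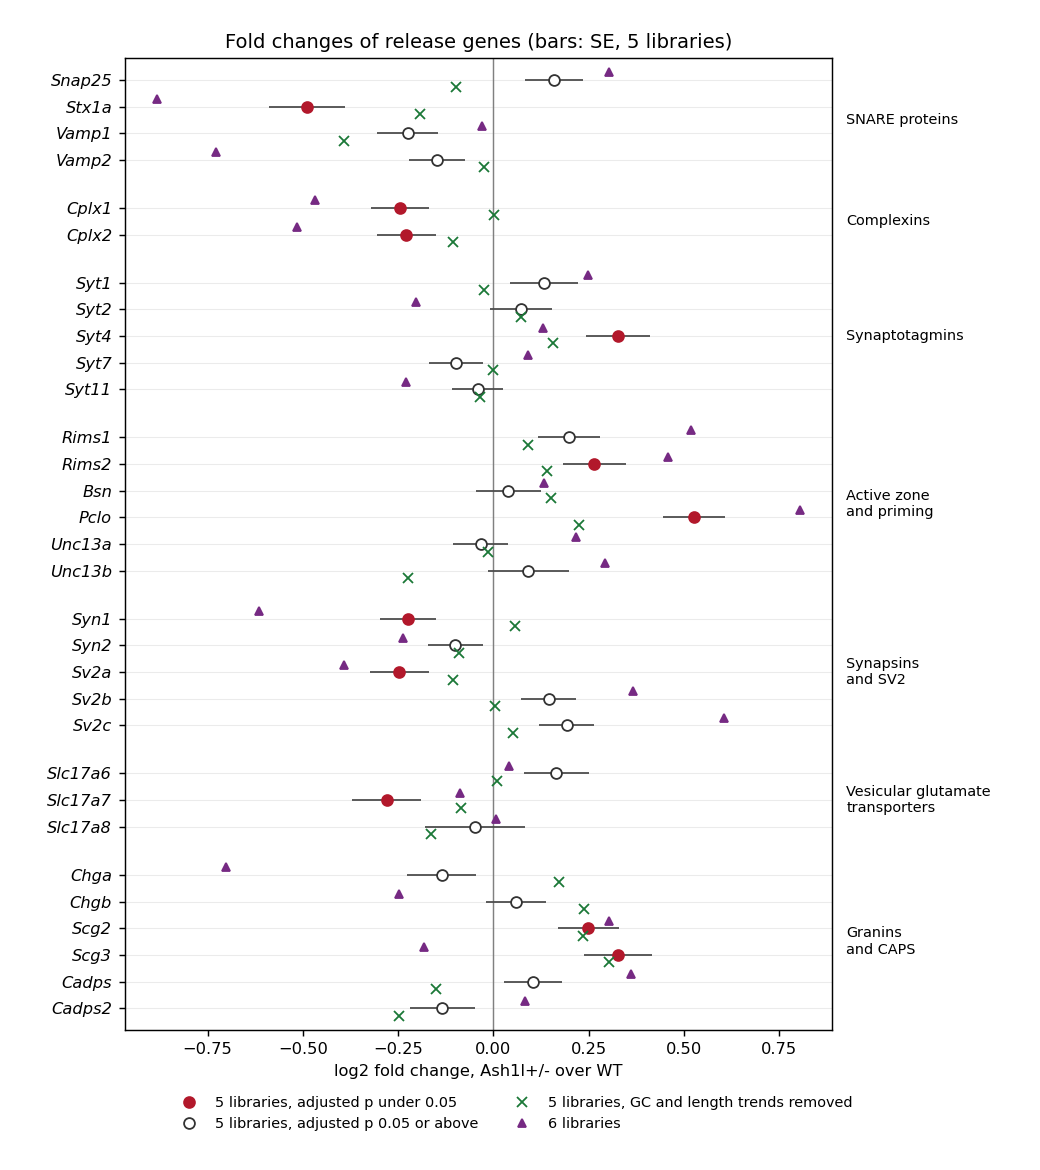
log2 fold change, Ash1l+/- over WT, of each member with 5 libraries (circles, bars are SE; filled where the adjusted p is under 0.05), with 5 libraries after removal of GC and length trends (crosses) and with all 6 libraries (triangles). Only Pclo, Scg2 and Scg3 are filled and keep an adjusted p under 0.05 after the trends are removed.

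Promoter sequences show the regulatory letters of the members with the largest folds and of the 3 that carry a cAMP response element (CRE), the site of activity-regulated CREB factors. RefSeq promoters on GRCm38.p6, from 250 bases before to 50 after the start site, were matched for 26 of the 31 members. Each sequence reads 5′ to 3′ on the gene's strand, and positions are counted from the RefSeq start site. Capitals mark the GC box GGGCGG in Pclo and Stx1a and the CRE TGACGTCA in Syn1, Scg2 and Chgb. They also mark the left part of RE1, the site of the repressor REST, in Syn1 and Scg2, and its right part in Scg2. Scg3, the other granin that rose, is shown with no motif found.
Pclo chr5:14514818-14514915, plus strand, -100 to -3: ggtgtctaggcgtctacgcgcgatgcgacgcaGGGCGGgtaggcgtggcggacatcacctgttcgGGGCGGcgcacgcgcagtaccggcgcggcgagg
Stx1a chr5:135023382-135023481, plus strand, -100 to -1: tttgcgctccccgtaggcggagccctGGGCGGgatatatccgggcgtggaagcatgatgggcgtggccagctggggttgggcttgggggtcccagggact
Scg3 chr9:75684057-75684156, minus strand, -100 to -1: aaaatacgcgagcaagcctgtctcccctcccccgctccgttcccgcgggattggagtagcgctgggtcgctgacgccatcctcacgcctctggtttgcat
Syn1 chrX:20921059-20921163, minus strand, -245 to -141: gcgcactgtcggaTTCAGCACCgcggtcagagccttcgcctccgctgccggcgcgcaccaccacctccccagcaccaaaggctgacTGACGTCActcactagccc
Scg2 chr1:79440076-79440105, minus strand, -79 to -50: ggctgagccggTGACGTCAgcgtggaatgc
Scg2 chr1:79440025-79440040, minus strand, -14 to 2: GCTGTCCGGTGCTGAA
Chgb chr2:132781559-132781588, plus strand, -83 to -54: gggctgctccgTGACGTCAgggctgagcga

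The motifs were searched as exact letters on both strands, and a match describes the letters and is not a site shown to be bound. A CRE stood in 3 of 26 members (11.5%), compared with 2.03% of 27025 genes. The left part of RE1, TTCAGCACC, stood in Scg2, Syn1 and Unc13a (11.5%, compared with 0.433%), and its right part, GGACAGC, in Scg2 and Unc13a (7.69%, compared with 7.59%). In Scg2 the 2 parts abut, both on the opposite strand, and share no base with each other or with the CRE. A GC box was present in 19 members (73.1%, compared with 38.2%), and the AP-1 letters TGANTCA in Syt2 alone (3.85%, compared with 8.97%). The 27025 genes include ones that did not pass the filter on low counts, whereas all members passed it. No motif share over genes of like count was computed. The 3 members with a CRE differed in their values: with 5 libraries Scg2 rose, Syn1 fell and Chgb had a log2 fold change of 0.06 that did not pass. In GENCODE M21 the short stretches of Scg2 and Chgb lie within an exon of a longer transcript.

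Of the 6 active zone and priming genes, 2 rose with 5 libraries, Pclo and Rims2, none fell and 4 did not pass. As counted, Pclo had the largest rise of all members, whereas with GC and length trends removed Scg3, Chgb and Scg2 had larger values. Pclo encodes Piccolo, a giant scaffold of the active zone (ENSMUSG00000061601, GRCm38 chr5:14514918-14863459, plus strand). It had 7.16, 7.98 and 7.92 FPKM in Ash1l+/- replicates 1, 2 and 3, against 4.995, 2.49 and 5.65 FPKM in WT replicates 1, 2 and 3. All Ash1l+/- libraries lay above all WT libraries, with or without WT replicate 2. With 5 libraries it rose 1.44-fold, a log2 fold change of 0.53 (SE 0.08, edgeR adjusted p = 0.000316), and it stayed called whichever further library was left out (edgeR adjusted p of 2.28e-05 to 0.014). With GC and length trends removed the log2 fold change was 0.22 (SE 0.06, edgeR adjusted p = 0.0375). With all 6 libraries it was 0.80 (SE 0.31, edgeR adjusted p = 0.385). Its relative Bsn, the gene of the scaffold Bassoon, had 11.9, 10.3 and 9.55 FPKM in Ash1l+/-, against 10.3, 8.20 and 10.3 FPKM in WT, with overlapping groups and a log2 fold change of 0.04 (SE 0.09, edgeR adjusted p = 0.786) with 5 libraries and 0.13 (edgeR adjusted p = 0.638) with 6.

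Rims2, a scaffold that ties vesicles to calcium channels (ENSMUSG00000037386, chr15:39198261-39684372, plus strand), had 5.78, 6.13 and 6.29 FPKM in Ash1l+/- replicates 1 to 3, against 5.13, 3.09 and 4.94 FPKM in WT replicates 1 to 3. The groups did not overlap. It rose 1.20-fold with 5 libraries (log2 fold change 0.26, SE 0.08, edgeR adjusted p = 0.029), and the log2 fold change was 0.14 with trends removed (edgeR adjusted p = 0.263) and 0.46 with all 6 libraries (edgeR adjusted p = 0.385). The call held without Ash1l+/- replicate 1 (edgeR adjusted p = 0.0101) and was lost when any other library was left out (0.094 to 0.16). Rims1, its relative, had 10.7, 10.7 and 11.9 FPKM in Ash1l+/-, against 9.21, 3.83 and 10.1 FPKM in WT. It missed the threshold at a log2 fold change of 0.20 (SE 0.08, edgeR adjusted p = 0.0947) with 5 libraries and 0.52 (edgeR adjusted p = 0.436) with 6, although its groups did not overlap. Unc13a and Unc13b, which encode the priming factors Munc13-1 and Munc13-2, had log2 fold changes of -0.03 and 0.09 with 5 libraries and 0.22 and 0.29 with 6, and did not pass. Unc13a shares 495 of its 10312 annotated exon bases with Colgalt1 on the other strand, and a kit of the name given keeps no strand, so those reads cannot be told apart.

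Of the 4 SNARE genes, Stx1a fell with 5 libraries and 3 did not pass. As counted its fall was the largest of all members, whereas with trends removed Vamp1, Cadps2 and Unc13b had lower values. Stx1a encodes syntaxin 1A of the plasma membrane (ENSMUSG00000007207, chr5:135023482-135051100, plus strand). The gene had 13.7, 11.4 and 13.0 FPKM in Ash1l+/- replicates 1 to 3, against 18.8, 34.2 and 16.8 FPKM in WT replicates 1 to 3. All Ash1l+/- libraries lay below all WT libraries, and WT replicate 2 was the highest. With 5 libraries it fell to 0.712 of the WT level (log2 fold change -0.49, SE 0.10, edgeR adjusted p = 0.00236). The call was lost without WT replicate 1 (edgeR adjusted p = 0.0676) and with trends removed, where the log2 fold change was -0.19 (SE 0.08, edgeR adjusted p = 0.174). With all 6 libraries the log2 fold change was -0.88 (SE 0.30, edgeR adjusted p = 0.385).

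The other SNARE genes did not pass the edgeR test with 5 libraries. Snap25, the partner of syntaxin (chr2:136713453-136782428), had 211, 192 and 222 FPKM in Ash1l+/-, against 176, 131 and 196.6 FPKM in WT, and its groups overlapped (log2 fold change 0.16, SE 0.08, edgeR adjusted p = 0.156 with 5 libraries, and 0.30, edgeR adjusted p = 0.416 with 6). Vamp2, the SNARE of synaptic vesicles (chr11:69088490-69092384), had 122, 116 and 126 FPKM in Ash1l+/-, against 129, 330.3 and 140.3 FPKM in WT. Its groups did not overlap, and the log2 fold change was -0.15 (SE 0.07, edgeR adjusted p = 0.164) with 5 libraries and -0.73 (edgeR adjusted p = 0.388) with 6. Vamp1, chosen here after its values were seen, is the vesicle SNARE abundant in motor and large sensory neurons. It had 70.8, 58.3 and 62.8 FPKM in Ash1l+/-, against 73.0, 45.6 and 76.3 FPKM in WT, where WT replicate 2 was the lowest of all. Its log2 fold change was -0.23 (SE 0.08, edgeR adjusted p = 0.0532) with 5 libraries, -0.39 (SE 0.07, edgeR adjusted p = 0.00328) with trends removed and -0.03 with all 6. Vamp1 was called in 6 of the 9 other settings of the 5 libraries, DESeq2 and limma-voom among them, and with quality weights on 6 libraries (limma adjusted p = 0.046).

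Both complexins fell with 5 libraries. Cplx1 (ENSMUSG00000033615, chr5:108518554-108550024, minus strand) had 523, 439.6 and 477 FPKM in Ash1l+/- replicates 1 to 3, against 562, 840.2 and 574 FPKM in WT replicates 1 to 3. Cplx2 (ENSMUSG00000025867, chr13:54371349-54383917, plus strand) had 57.1, 52.5 and 58.4 FPKM in Ash1l+/-, against 68.9, 107 and 62.1 FPKM in WT. Neither gene's groups overlapped, and WT replicate 2 was the highest library for both. The 5-library log2 fold changes were -0.25 (SE 0.08, edgeR adjusted p = 0.029) for Cplx1 and -0.23 (SE 0.08, edgeR adjusted p = 0.0416) for Cplx2. With trends removed neither passed, at 0.00 (edgeR adjusted p = 0.996) for Cplx1 and -0.10 (edgeR adjusted p = 0.355) for Cplx2. With all 6 libraries the values were -0.47 for Cplx1 and -0.51 for Cplx2 (edgeR adjusted p = 0.385 for each). Cplx1 was called without Ash1l+/- replicate 1 (edgeR adjusted p = 0.00214) and lost when any other library was left out (0.0907 to 0.187). Cplx2 was called without Ash1l+/- replicate 1 (0.0252) or WT replicate 3 (0.0273) and lost without each of the other 3 libraries (edgeR adjusted p of 0.0601 to 0.393).

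Of the 5 synaptotagmins, only Syt4 passed, a form of dense-core vesicles that does not act as a fast calcium sensor (ENSMUSG00000024261, chr18:31437808-31447415, minus strand). It had 89.1, 104 and 105 FPKM in Ash1l+/- replicates 1 to 3, against 74.4, 112 and 83.7 FPKM in WT replicates 1 to 3. WT replicate 2 lay above every Ash1l+/- library, so the groups overlapped with 6 libraries and did not with 5. It rose 1.25-fold with 5 libraries (log2 fold change 0.33, SE 0.08, edgeR adjusted p = 0.00988), and the log2 fold change was 0.16 with trends removed (edgeR adjusted p = 0.127) and 0.13 with all 6 (edgeR adjusted p = 0.703). The call was lost without Ash1l+/- replicate 2 (edgeR adjusted p = 0.0557) and without WT replicate 1 (0.189). Syt11, the most abundant synaptotagmin of the list, had 274, 285 and 276 FPKM in Ash1l+/-, against 285, 400.2 and 287 FPKM in WT, a log2 fold change of -0.04 (SE 0.07, edgeR adjusted p = 0.711) without WT replicate 2 and -0.23 (edgeR adjusted p = 0.496) with it. The calcium sensors Syt1, Syt2 and Syt7 had 5-library log2 fold changes of 0.13, 0.07 and -0.10 and did not pass. With 6 libraries they stood at 0.25, -0.20 and 0.09. Syt4 shares 566 annotated exon bases with the noncoding gene Gm26658 on the other strand, which averaged 1.83 counts per library.

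Of the 5 synapsin and SV2 genes, Syn1 and Sv2a fell with 5 libraries and 3 did not pass. Syn1, the synapsin that tethers vesicles in the reserve pool (ENSMUSG00000037217, chrX:20860511-20921004, minus strand), had 124, 118 and 133 FPKM in Ash1l+/- replicates 1 to 3, against 145, 278 and 146 FPKM in WT replicates 1 to 3. Sv2a, a membrane protein of synaptic vesicles (ENSMUSG00000038486, chr3:96181151-96195521, plus strand), had 14.4, 13.5 and 13.8 FPKM in Ash1l+/-, against 16.5, 21.4 and 16.5 FPKM in WT. The groups did not overlap for either gene. Both fell with 5 libraries, at log2 fold changes of -0.22 (SE 0.07, edgeR adjusted p = 0.0379) for Syn1 and -0.25 (SE 0.08, edgeR adjusted p = 0.0297) for Sv2a. With trends removed Syn1 was at 0.06 (edgeR adjusted p = 0.697) and Sv2a at -0.11 (edgeR adjusted p = 0.369). With all 6 libraries they were at -0.61 for Syn1 and -0.39 for Sv2a (edgeR adjusted p = 0.385 for each). The call of Sv2a held only without Ash1l+/- replicate 1 (edgeR adjusted p = 0.0135) and was lost when any other library was left out (0.0794 to 0.164). That of Syn1 held without Ash1l+/- replicate 1 (0.0348) or 3 (0.0403) and was lost without each of the rest (edgeR adjusted p of 0.112 to 0.198).

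Their relatives did not pass the edgeR test. Syn2 had 31.3, 29.6 and 29.2 FPKM in Ash1l+/-, against 32.0, 41.1 and 32.3 FPKM in WT, with groups that did not overlap and a log2 fold change of -0.10 (SE 0.07, edgeR adjusted p = 0.359) with 5 libraries and -0.24 with 6. Sv2b had 41.5, 38.9 and 41.2 FPKM in Ash1l+/-, against 36.1, 20.6 and 37.1 FPKM in WT. It was higher in every Ash1l+/- library than in any WT library, at a log2 fold change of 0.15 (SE 0.07, edgeR adjusted p = 0.163) with 5 libraries and 0.37 with 6. Sv2c, also higher without overlap, stood at 0.19 (SE 0.07, edgeR adjusted p = 0.0645) with 5 libraries and 0.61 with 6. DESeq2 and limma-voom called it with 5 libraries, and edgeR called it without Ash1l+/- replicate 1 (edgeR adjusted p = 0.04996) or WT replicate 3 (0.048), whereas with trends removed it stood at 0.05 (edgeR adjusted p = 0.666). On the log2 scale it held the widest gap of any member between WT replicate 2, at 21.4 FPKM, and the other WT libraries, at 81.7 and 90.9 FPKM.

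Of the 3 vesicular glutamate transporters, Slc17a7 fell with 5 libraries and the others did not pass. Slc17a7 (ENSMUSG00000070570, chr7:45163949-45176142, plus strand) loads glutamate mainly in large-diameter neurons, and Slc17a6 in most sensory neurons. Slc17a7 had 43.3, 33.7 and 36.7 FPKM in Ash1l+/- replicates 1 to 3, against 47.8, 28.1 and 44.1 FPKM in WT replicates 1 to 3. Groups overlapped with 6 libraries, where WT replicate 2 was the lowest, and did not with 5. The log2 fold change was -0.28 (SE 0.09, edgeR adjusted p = 0.0347) with 5 libraries, -0.09 (edgeR adjusted p = 0.509) with trends removed and -0.09 (edgeR adjusted p = 0.826) with all 6. The call held without Ash1l+/- replicate 1 (edgeR adjusted p = 0.000795) or WT replicate 3 (0.0323) and was lost without each of the rest (0.102 to 0.26). Slc17a6 had 47.5, 55.7 and 57.5 FPKM in Ash1l+/-, against 45.4, 59.9 and 49.98 FPKM in WT, with overlapping groups and a log2 fold change of 0.17 (SE 0.08, edgeR adjusted p = 0.179) with 5 libraries and 0.04 with 6. Of 10 markers of large-diameter neurons, 5 rose and 1 fell in the same 5 libraries, and 1 was higher and 1 lower with trends removed. Of all genes, 9.39% rose and 10.4% fell as counted, and 3.04% rose and 4.07% fell with trends removed. The summed level of the large-diameter markers was 1033 to 1146 FPKM in Ash1l+/-, against 1002, 2374 and 957 FPKM in WT replicates 1, 2 and 3. Pvalb alone had 1275 FPKM of that sum in WT replicate 2. The median log2 ratio of these markers there over WT replicates 1 and 3 was -0.07. Their part in the values of Slc17a7 and Vamp1 was not tested.

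Of the 6 granin and CAPS genes, Scg3 and Scg2 rose with 5 libraries, and both calls stayed after the trends were removed. Scg3 encodes secretogranin III, which brings other granins to the granule membrane (ENSMUSG00000032181, chr9:75643189-75684056, minus strand). It had 353, 418 and 445 FPKM in Ash1l+/- replicates 1 to 3, against 299.9, 723 and 345 FPKM in WT replicates 1 to 3. WT replicate 2 was far above all others, so the direction turned with it: the log2 fold change was 0.33 (SE 0.09, edgeR adjusted p = 0.0143) with 5 libraries and -0.18 (SE 0.36, edgeR adjusted p = 0.763) with 6. With trends removed from the 5 it was 0.30 (SE 0.07, edgeR adjusted p = 0.0177). The call held without Ash1l+/- replicate 1 (edgeR adjusted p = 0.000351) or WT replicate 3 (0.00853) and was lost without each of the other 3 (0.0616 to 0.239).

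Scg2 encodes secretogranin II, the precursor of secretoneurin (ENSMUSG00000050711, chr1:79434669-79440120, minus strand). It had 125, 147 and 146 FPKM in Ash1l+/- replicates 1 to 3, against 114, 102 and 119 FPKM in WT replicates 1 to 3. All Ash1l+/- libraries lay above all WT libraries, and WT replicate 2 was near the other WT libraries. It rose 1.19-fold with 5 libraries (log2 fold change 0.25, SE 0.08, edgeR adjusted p = 0.0339), stood at 0.24 with trends removed (SE 0.06, edgeR adjusted p = 0.0333) and at 0.30 with 6 (SE 0.15, edgeR adjusted p = 0.385). The call held without Ash1l+/- replicate 1 (edgeR adjusted p = 0.00216) and was lost when any other library was left out (0.0763 to 0.239).

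The chromogranins and the CAPS genes did not pass with 5 libraries. Chga and Chgb, the main soluble granins, had log2 fold changes of -0.14 and 0.06 with 5 libraries, against -0.70 and -0.25 with 6. Cadps and Cadps2, which prime dense-core vesicles, had 0.10 and -0.13 with 5 libraries, against 0.36 and 0.08 with 6. Chgb and Cadps2 passed when trends were removed, at 0.24 (SE 0.06, edgeR adjusted p = 0.0306) and -0.25 (SE 0.07, edgeR adjusted p = 0.0475), and are singled out after their values were seen. Chgb had 55.6, 50.2 and 56.5 FPKM in Ash1l+/-, against 54.0, 87.6 and 49.7 FPKM in WT, with overlapping groups. Cadps2 had 4.89, 5.34 and 5.34 FPKM in Ash1l+/-, against 5.65, 3.26 and 5.70 FPKM in WT, where WT replicate 2 was the lowest and the other WT libraries the highest. Of 7 markers of peptidergic nociceptors, which store peptides in dense-core vesicles, 3 were called higher and 1 lower with 5 libraries, and 3 higher and 0 lower by edgeR with trends removed. Of all genes, 9.39% were called higher and 10.4% lower as counted, and 3.04% and 4.07% with trends removed. The 7 markers summed to 919 to 977 FPKM in Ash1l+/-, against 867, 1674 and 934 FPKM in WT replicates 1, 2 and 3, and their part in the granin values was not tested.

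Members that rose and members that fell differed in base composition. The 5 that rose with 5 libraries had a GC share of the longest transcript of 40.7% to 48.9% (median 46.5%), and the 6 that fell had 53.7% to 57.9% (median 56.3%). The 20 that did not pass ranged from 38.7% to 59.8%. Once trends were removed, the rho between fold and GC was 0.07 across members, and the 6 members called then included Chgb at 53.9% among those higher and Vamp1 at 47.0% and Cadps2 at 48.9% among those lower. Gene length followed the 5-library fold with a rho of 0.31 and the 6-library fold with a rho of 0.68 across members (n = 31). How far composition accounts for each call was not tested.

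**Figure D4:**
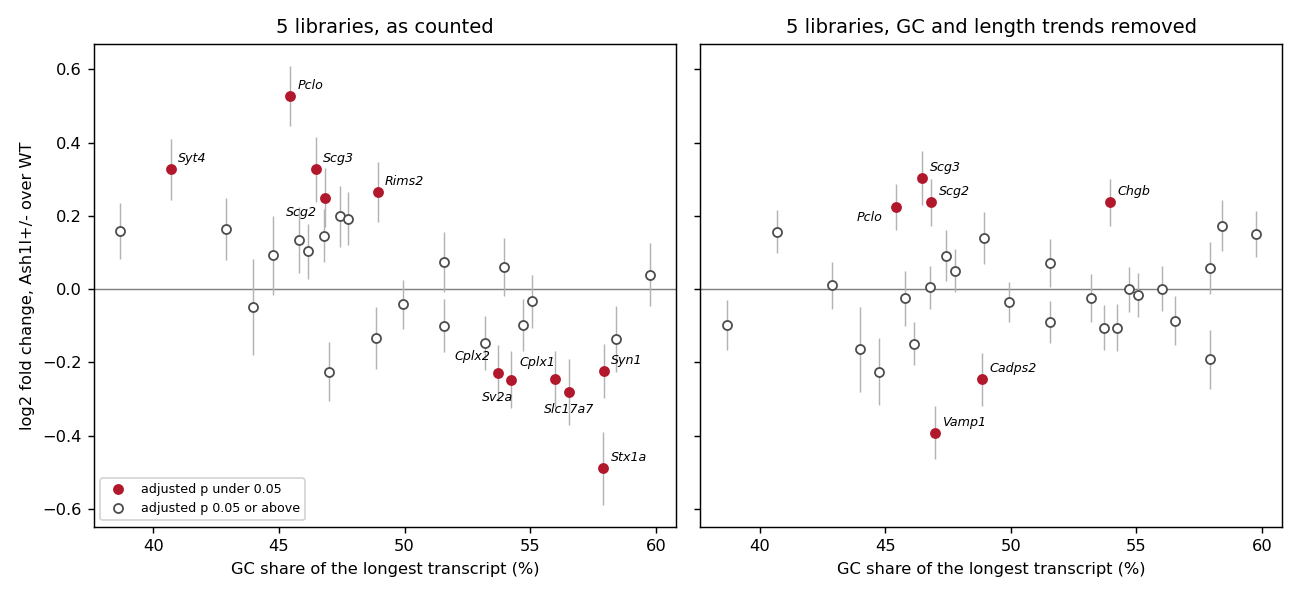
log2 fold change, Ash1l+/- over WT (bars are SE), against GC share of the longest transcript for the 31 genes with 5 libraries, as counted (left) and with GC and length trends removed (right); filled points have an adjusted p under 0.05. On the left, filled points under 50% GC are all above 0 and those over 50% all below it, whereas on the right the order by GC is gone.

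Ratios between related genes were compared within each library, which removes library scaling. In 4 of 12 pairs the ratio did not overlap between genotypes with 6 libraries or with 5. For single genes such non-overlap was found for 38.7% with 6 libraries and 49.4% with 5, and no share over other gene pairs was computed. The log2 ratio of Sv2a to Sv2b was -1.53, -1.52 and -1.58 in Ash1l+/- replicates 1 to 3, against -1.13, 0.06 and -1.17 in WT replicates 1 to 3. That of Bsn to Pclo was 0.73, 0.37 and 0.27 in Ash1l+/-, against 1.04, 1.72 and 0.86 in WT. Chga to Chgb stood at 0.64, 0.42 and 0.47 in Ash1l+/-, against 0.72, 1.22 and 0.70 in WT, and Cadps to Cadps2 at 3.06, 3.06 and 3.08 in Ash1l+/-, against 2.76, 2.64 and 2.90 in WT. Without WT replicate 2 the mean differences, Ash1l+/- minus WT, were -0.39, -0.50, -0.20 and 0.24 in the same order of pairs. Two-sided exact permutation tests gave p = 0.1 for each of the 4 with 6 libraries, the smallest that 3 against 3 can give, and 0.3 after Benjamini-Hochberg adjustment over the 12 pairs. With 5 libraries the exact permutation p was 0.1 for Sv2a to Sv2b and Cadps to Cadps2, 0.2 for Bsn to Pclo and Chga to Chgb, and 0.6 for each after adjustment. An exact permutation p of 0.1 is also the smallest that 3 against 2 can give, so no ratio could pass 0.05 in either comparison. A ratio does not remove GC trends, and the first gene's GC share minus the second's was 7.44 points for Sv2a and Sv2b, 14.3 for Bsn and Pclo, 4.48 for Chga and Chgb and -2.70 for Cadps and Cadps2. With trends removed from the 5 libraries, the genes of each pair lay closer in log2 fold change, at -0.11 for Sv2a beside 0.01 for Sv2b, 0.15 for Bsn beside 0.22 for Pclo, 0.17 for Chga beside 0.24 for Chgb, and -0.15 for Cadps beside -0.25 for Cadps2. The ratio of Cplx1 to Cplx2 overlapped between genotypes, at 3.20, 3.07 and 3.03 in Ash1l+/-, against 3.03, 2.97 and 3.21 in WT.

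**Figure D5:**
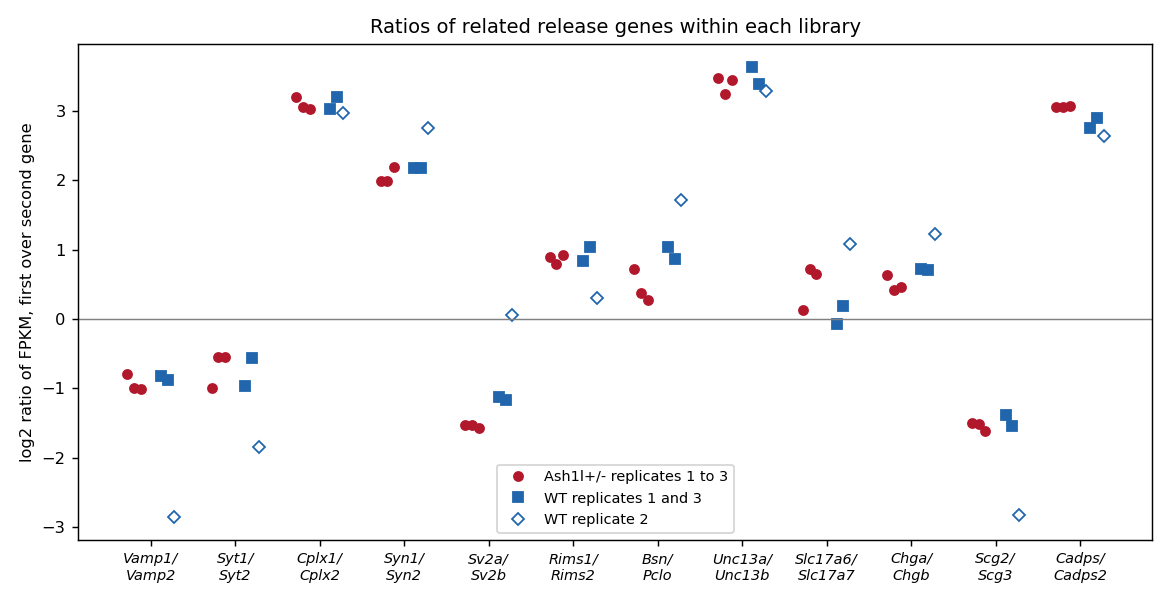
log2 ratio of the FPKM of 12 related gene pairs within each library, with Ash1l+/- replicates 1 to 3 (red circles) left of WT replicates 1 and 3 (blue squares) and WT replicate 2 (open diamonds). The groups are apart for Sv2a/Sv2b, Bsn/Pclo, Chga/Chgb and Cadps/Cadps2, and WT replicate 2 is far from the rest for Vamp1/Vamp2, Sv2a/Sv2b and Scg2/Scg3.

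The wider release pathway was read from 109 other genes, of which 103 were tested. With 6 libraries edgeR called 0 of them. With 5 libraries 15 rose, 19 fell and 69 did not pass, where 9.39% of all genes rose and 10.4% fell. Their median log2 fold change was -0.02, against 0.00 over all genes. With trends removed, 3.04% of all genes were called higher and 4.07% lower. Of the 103 genes, 4 were then higher and 8 lower: 2 and 0 for SNARE and fusion regulators, 0 and 0 for active zone and Rab3 genes, 1 and 5 for vesicle proteins and transporters, 1 and 1 for dense-core vesicle genes, and 0 and 2 for recycling genes. Vamp7, 1 of the 2 SNARE and fusion regulators called higher with trends removed, lies on a scaffold and has no GC share. Only its length trend was removed. The folds of single genes given next are those of the 5 libraries. Each of these 18 genes had the same sign with all 6 libraries and an edgeR adjusted p of at least 0.385. Leaving out an Ash1l+/- library as well gave from 7 higher and 10 lower without replicate 2 to 18 higher and 20 lower without replicate 1. Those 2 fits called 1855 and 4198 of all genes.

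SNARE and fusion regulators had 4 that rose and 4 that fell of 31. Stxbp5l, a tomosyn that blocks SNARE assembly, had 2.48, 2.21 and 2.06 FPKM in Ash1l+/-, against 1.43, 0.177 and 1.41 FPKM in WT, a 5-library log2 fold change of 0.67 (SE 0.13, edgeR adjusted p = 0.00158). Syt5 was lower, at -0.44 (SE 0.08, edgeR adjusted p = 0.000841). Vamp7 rose at 0.31 and Syt13 fell at -0.78. Active zone and Rab3 genes had 6 that rose and 2 that fell of 22. Ppfia2, a liprin scaffold, and Unc13c, a Munc13, rose at 0.43 and 0.40, and Rims4 and Ppfia3 fell at -0.59 and -0.34.

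Other synaptic vesicle proteins and transporters had 0 that rose and 4 that fell of 16 by edgeR. Svop, a transporter-like protein related to SV2, had 19.95, 16.5 and 16.1 FPKM in Ash1l+/-, against 26.7, 46.6 and 24.9 FPKM in WT (5-library log2 fold change -0.56, SE 0.09, edgeR adjusted p = 0.000404), and Syngr3 stood at -0.47. Of 12 other dense-core vesicle genes 2 rose, Pcsk1, a prohormone convertase, at 0.37 and Ccdc186 at 0.37. The 3 that fell included Pcsk1n, which encodes an inhibitor of that convertase. Pcsk1n had 227, 206 and 189 FPKM in Ash1l+/-, against 378, 2906 and 314 FPKM in WT, a 5-library log2 fold change of -0.74 (SE 0.09, edgeR adjusted p = 2.84e-05), and WT replicate 2 was far above the rest. Ptprn, a membrane protein of dense-core vesicles, fell at -0.32. Vesicle recycling genes had 3 that rose and 6 that fell of 22. Itsn2 and Cltc, the clathrin heavy chain, rose at 0.35 and 0.25, and Sh3gl1 and Ap2s1 fell at -0.39 and -0.37. Of these 18 genes, Stxbp5l, Svop, Pcsk1n and Sh3gl1 were still called with GC and length trends removed. Vamp7 was still called too, but only its length trend was removed. The 18 kept 12 calls without Ash1l+/- replicate 2.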

How the data were processed

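RNA of dorsal root ganglia from 3 Ash1l+/- and 3 WT littermate libraries was extracted with Trizol and made into libraries with a NEBNext Ultra RNA kit, per the labels' protocols. The authors deposited 1 table of gene counts and FPKM for all 6 libraries. Per the submitters' processing notes it was made with HISAT2 2.0.5 and featureCounts 1.5.0-p3 on GRCm38 (mm10), with parameters that the sources used here do not give. In the deposited FPKM, each library's counts are divided by gene length and by 1 scaling total per library, which is not its count total.

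Counts were tested over all genes with edgeR 4.0.16 in R 4.3.3 (TMM factors, filterByExpr, quasi-likelihood test, Benjamini-Hochberg adjustment, threshold 0.05), with all 6 libraries and with the 5 without WT replicate 2. The procedure was also run on simulated counts with folds larger than those of the members and a common dispersion. They held no outlying library and no GC or length trend. That run therefore does not show how the procedure performs on folds of the size seen here. Alternatives were other scalings (RLE, upper quartile, library totals), other count filters, DESeq2 1.42.0, limma 3.58.1 (voom with and without library quality weights, and log2 FPKM with pseudocounts of 1 and 0.1), the replicate number as a block, removal of each library's loess trends (span 0.3) on GC share and gene length, and leaving out each library. GC is that of the longest transcript in GENCODE M21. TMM factors were 0.759 for WT replicate 2 and 1.05 to 1.07 for the others. No library pair agreed within counting noise (chi-square per degree of freedom of at least 3.91).

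The members and lists were chosen with earlier results of these data known. Full values are given to members called with 5 libraries, the 5 most abundant and both members of a related pair where 1 passed.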

Additional observations from a re-analysis of the deposited data

How the results depend on the processing

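The counts of calls changed with the libraries used and with how they were weighted. With all 6 libraries edgeR called 0 genes, DESeq2 called 35, and limma-voom with quality weights called 3421, of which 5 members were higher and 7 lower. Leaving out 1 library gave 0 to 3252 genes, 0 to 5 members higher and 0 to 6 lower, and a median of the members from -0.00798 to 0.11 (log2). With 5 libraries, leaving out 1 more gave 796 to 4198 genes, 1 to 7 members higher and 0 to 8 lower, and a median from -0.006825 to 0.029. Removing GC and length trends from the 5 libraries left 1167 genes and 2 members lower, with a median of 9.5e-05. The other scalings of the 5 libraries changed the sign of no member, and the causes of these changes were not tested.

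With the replicate block, 9 members were higher with 5 libraries. The share of all genes called higher in that fit is not given here, so the 9 cannot be set against it. With 6 libraries the block called 0 genes. Deviations of same-numbered libraries from their genotype's mean correlated at -0.0086, -0.036 and 0.053. The WT mean includes WT replicate 2, which stood apart, so these values cannot tell whether same-numbered libraries were paired.

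Removing trends from the 5 libraries turned the log2 fold change to -0.10 for Snap25, 0.00092 for Cplx1, -0.025 for Syt1, 9.5e-05 for Syt7, -0.22 for Unc13b, 0.058 for Syn1, 0.17 for Chga and -0.15 for Cadps. With 6 libraries it gave -0.16 for Snap25, 0.064 for Cplx1, -0.11 for Syt1, -0.15 for Syt4, -0.31 for Unc13b, -0.29 for Slc17a6, 0.13 for Slc17a7, -0.22 for Slc17a8, 0.13 for Chgb, -0.11 for Cadps and -0.18 for Cadps2. Quality weights gave 0.027 for Syt2, -0.088 for Syt7, -0.034 for Unc13a, 0.030 for Chgb, 0.36 for Scg3 and -0.11 for Cadps2. Vamp1 with 6 libraries was at 0.010 with upper-quartile factors, 0.067 with library totals, 0.00057 with the replicate block, 0.0090 on log2(FPKM + 1) and 0.0097 on log2(FPKM + 0.1). Library totals gave 0.011 for Slc17a7 and 0.049 for Scg3, and DESeq2 gave -0.00059 for Slc17a8.

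Leaving out 1 of 6 libraries also turned a sign within these ranges: Vamp1 -0.23 to 0.11, Syt2 -0.34 to 0.073, Syt7 -0.097 to 0.21, Unc13a -0.033 to 0.39, Slc17a6 -0.041 to 0.17, Slc17a7 -0.28 to 0.063, Slc17a8 -0.066 to 0.13, Chgb -0.39 to 0.060, Scg3 -0.40 to 0.33 and Cadps2 -0.13 to 0.21. With 5 libraries the ranges were Syt1 -0.0051 to 0.27, Syt2 -0.0068 to 0.14, Bsn -0.053 to 0.11, Unc13a -0.075 to 0.00020, Unc13b -0.0021 to 0.18, Slc17a8 -0.20 to 0.10 and Chgb -0.0041 to 0.12. For the ratios they were Vamp1/Vamp2 -0.083 to 0.94, Cplx1/Cplx2 -0.021 to 0.099, Rims1/Rims2 -0.067 to 0.30, Unc13a/Unc13b -0.12 to 0.054, Slc17a6/Slc17a7 -0.13 to 0.45 and Scg2/Scg3 -0.077 to 0.64. No ratio could pass the threshold in any setting, since the exact permutation p cannot go below 0.1 with 6 libraries or fewer. Mean counts of the members were at least 331 per library. The SE of the log2 fold change was larger with 6 libraries than with 5, for example 0.31 with 6 and 0.08 with 5 for Pclo.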
